A study of Mus musculus with 10 samples.

Results

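The genes described are 10 members of the Krüppel-like factor (KLF) family, *Klf2*, *Klf3*, *Klf4*, *Klf5*, *Klf6*, *Klf7*, *Klf9*, *Klf10*, *Klf13* and *Klf15*. They were taken by their symbols from the deposited table of raw read counts, which lists 43346 genes, and all 10 had enough reads to be tested in each comparison. RNA sequencing had been performed on 10 libraries of O9-1 cells, a line derived from the cranial neural crest of the mouse. Of these, 4 came from independent wildtype samples, 3 from Kat5 ko clones and 3 from Ep400 ko clones. The clones had been made by CRISPR/Cas9-dependent editing of the gene for Kat5, the acetyltransferase of the Tip60/Ep400 chromatin complex, or for Ep400, its ATPase subunit that exchanges histones. Every ko library stems from a separate clone of 1 tetraploid line, so that clones of a group differ from each other in their edits and in anything else acquired during cloning. The study describes transfection, sorting for EGFP and expansion from single cells for the clones only. In comparisons with wildtype cells, these steps and the loss of the gene cannot be told apart. Going by the clone numbers of the study, Ep400/1 carried frameshifts in every allele, whereas Ep400/2 and Ep400/3 also kept alleles with short in-frame deletions at the ATP-binding site. By immunocytochemical staining, the study detected no Kat5 in any Kat5 ko clone and no Ep400 in any Ep400 ko clone. Wildtype cells and clones were grown alike, in medium conditioned by STO fibroblasts with FGF2 and LIF.

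KLFs are zinc finger transcription factors that bind GC-rich and CACCC sequences, and they share this preference with the related SP proteins. They fall into groups by their partners. Klf2, Klf4, Klf5, Klf6 and Klf7 carry activating domains, Klf3 recruits the CtBP corepressors, and Klf9, Klf10 and Klf13 recruit Sin3A. Several KLF genes are themselves immediate targets of growth factors, glucocorticoids, TGF-beta or mechanical stress, and the family is known for balancing proliferation against differentiation.

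In wildtype cells, the members spanned a wide range of transcript levels. Levels between genes were compared as FPKM, that is fragments counted and scaled to the length of the gene's exons in kilobases and to the size of the library. *Klf6*, a broadly expressed early response gene, had the highest mean with 26.7 ± 4.82 FPKM (SD, n = 4), followed by *Klf4*, one of the factors used to reprogram cells to pluripotency, with 22.5 ± 2.77 FPKM. The ranges of both overlapped across the 4 wildtype libraries. *Klf13* with 11.1 ± 0.476, *Klf10* with 8.41 ± 1.04, *Klf7* with 6.43 ± 0.493 and *Klf3* with 4.51 ± 0.432 FPKM followed without overlap between neighbours. *Klf9* with 4.06 ± 1.12, *Klf2* with 2.43 ± 0.954 and *Klf5* with 1.94 ± 0.544 FPKM each overlapped with the next higher gene. *Klf15* was lowest with 0.149 ± 0.0509 FPKM and stood apart from all others. The order in the lower part depended on the length used, as *Klf3* with 9.70 FPKM lay above *Klf7* with 6.82 FPKM when the longest transcript replaced the union of exons.

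In the Ep400 ko clones the order was different. *Klf4* had the highest mean level with 66.1 ± 25.3 FPKM (SD, n = 3), but its range overlapped with that of *Klf6* with 44.7 ± 11.3 FPKM. *Klf9* with 11.7 ± 2.95 and *Klf2* with 11.5 ± 1.52 FPKM held ranks 3 and 4 instead of 7 and 8 in wildtype cells. With the length of the longest transcript, *Klf9* and *Klf2* held ranks 4 and 6 instead of 7 and 9. The levels of *Klf9*, *Klf2*, *Klf13*, *Klf10*, *Klf7* and *Klf3* formed a row in these clones in which every neighbour overlapped with the next. In the Kat5 ko clones, *Klf6* with 32.6 ± 5.21 and *Klf4* with 27.6 ± 6.59 FPKM (SD, n = 3) remained the highest, and *Klf9* with 2.04 ± 0.731 FPKM held rank 9.

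**Figure D1:**
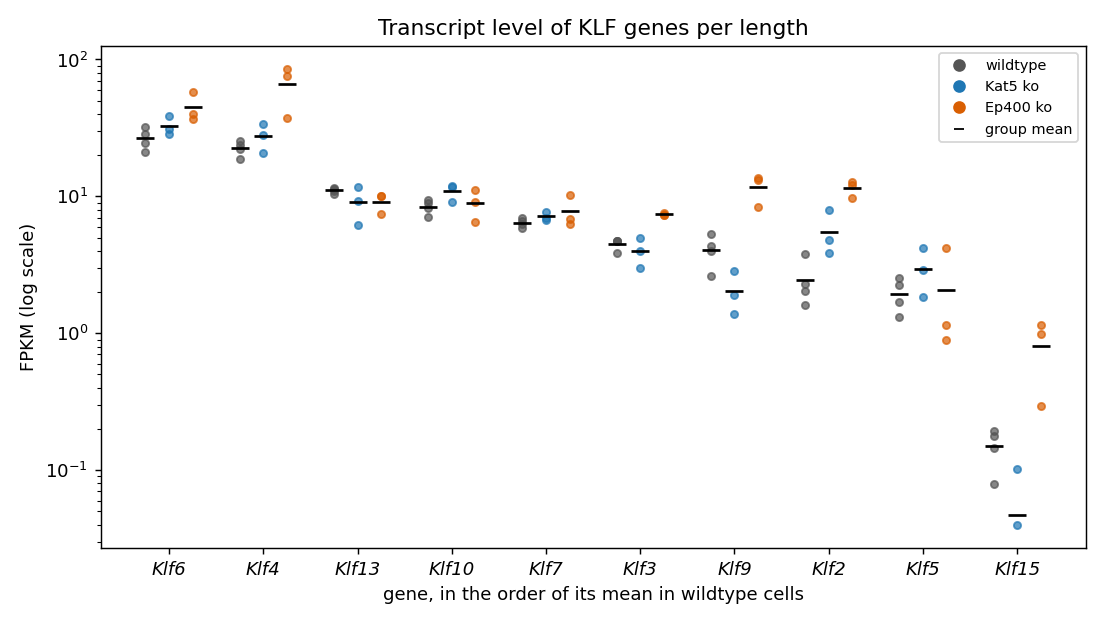
Transcript levels of the 10 KLF genes in FPKM on a log scale, with 1 point per library for wildtype (grey), Kat5 ko (blue) and Ep400 ko (orange) and a dash for the group mean. Genes stand in the order of their wildtype means, from *Klf6* with 26.7 to *Klf15* with 0.149 FPKM, and the library of clone Kat5/2, with 0 reads on *Klf15*, has no point there.

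*Klf2*, *Klf4* and *Klf9* are the members that met all criteria of a DEG between Ep400 ko clones and wildtype cells (an adjusted p of at most 0.05, an absolute log2-fold change of 1 or more, and more than 100 normalized counts on average in a group). To show what the sequence upstream of these 3 genes looks like, up to 250 bases before the RefSeq transcription start are given in genome build GRCm38.p6, without bases that GENCODE annotates as exon. Capitals mark the KLF and SP recognition sequences, namely the GC box GGGCGG and the CACCC box CACCC, on either strand. *Klf2* is shown for the 221 bases at chr8:72318812-72319032 on the plus strand, *Klf4* for the 250 bases at chr4:55532476-55532725 on the minus strand and *Klf9* for the 250 bases at chr19:23140976-23141225 on the plus strand.
Klf2: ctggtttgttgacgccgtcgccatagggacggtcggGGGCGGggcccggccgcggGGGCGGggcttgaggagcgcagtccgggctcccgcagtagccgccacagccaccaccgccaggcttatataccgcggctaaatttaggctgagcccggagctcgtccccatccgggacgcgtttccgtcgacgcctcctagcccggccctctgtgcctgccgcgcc
Klf4: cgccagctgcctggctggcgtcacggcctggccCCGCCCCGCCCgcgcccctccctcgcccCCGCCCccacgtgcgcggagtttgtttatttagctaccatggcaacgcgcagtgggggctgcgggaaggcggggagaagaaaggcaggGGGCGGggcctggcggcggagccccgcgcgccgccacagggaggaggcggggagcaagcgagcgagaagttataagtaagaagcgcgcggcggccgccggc
Klf9: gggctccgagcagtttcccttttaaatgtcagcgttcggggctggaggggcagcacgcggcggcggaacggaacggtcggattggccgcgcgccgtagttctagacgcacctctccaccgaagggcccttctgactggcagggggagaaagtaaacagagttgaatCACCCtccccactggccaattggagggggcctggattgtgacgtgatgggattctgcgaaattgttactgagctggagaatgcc

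Windows were at hand for 8 of the 10 members, all but *Klf5* and *Klf10*. All 250 bases were searched, including those that the exon rule above leaves out. These were 29 bases for *Klf2*, 7 for *Klf6*, 102 for *Klf7* and all 250 for *Klf3*. The CACCC box of *Klf2*, 19 bases before the start, lies in such bases and is absent from the printed sequence. A GC box was found in 7 of the 8 windows of 250 bases, where *Klf9* had none, and in 32.7% of all 32851 RefSeq windows of this length. A CACCC box was found in 6 of 8 and in 52.0% of all windows. The CCAAT box CCAAT was found in 4 of 8 windows, including that of *Klf9*, against 33.8% of all, and the E-box CACGTG in 3 of 8, including that of *Klf4*, against 6.02% of all. An AP-1 site (TGANTCA) was found for *Klf9* alone and in 6.75% of all windows, and a MEF2 site for *Klf2* alone, 118 bases before the start, and in 1.69% of all windows. None of the 8 windows held a TATA box TATAAA (12.4% of all windows), a CRE TGACGTCA (1.55%) or a CArG box (1.47%). All motifs were searched on both strands and matches may overlap, as GC and CACCC boxes do in the window of *Klf13*. A match describes the letters only and does not show that a factor binds.

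Library depth ranged from 30968945 to 48301792 reads counted on genes, of which the 10 members together took 0.0409% to 0.0822%. Mitochondrial genes took 0.893% to 3.24%. *Kat5* had 1818 to 2141 normalized counts in wildtype libraries and 854, 611 and 863 in the clones Kat5/1 to Kat5/3, and *Ep400* had 5839 to 6153 in wildtype libraries and 2039, 2287 and 2225 in the clones Ep400/1 to Ep400/3. A normalized count is the count divided by the TMM-scaled library size and brought to the mean size of all 10 libraries. Cranial neural crest markers such as *Prrx1* and *Twist1* were abundant throughout, whereas *Sox10* and *Foxd3*, which define early migratory crest, had 0 reads in every library.

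To see how the 10 members differ in the absence of Ep400, Ep400 ko clones were compared with wildtype cells. Of the 10 members, 6 were expressed at higher levels (*Klf2*, *Klf3*, *Klf4*, *Klf6*, *Klf9* and *Klf15*), 0 at lower levels and 4 did not pass the test. Over all 13836 genes tested in this comparison, 8% passed as higher and 5.72% as lower. The 3 DEGs among the members, all higher, compare with 4.11% of all genes that were DEGs with higher levels. In 6 members every Ep400 ko library lay above every wildtype library and in 1 member, *Klf13*, every one lay below, against 16.1% and 14.1% of all genes tested. The median change on the log2 scale was 0.73 for the members and 0.04 for the tested genes as a whole. The members were chosen with earlier results of these data known, so these shares are no test of the family. Of the other 7 KLF genes, 4 were tested in this comparison, with 0 higher, 1 lower (*Klf12*) and a median of −0.45. As these are bulk libraries, a change in the share of cells that express a gene and a change in transcripts per cell cannot be told apart.

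**Figure D2:**
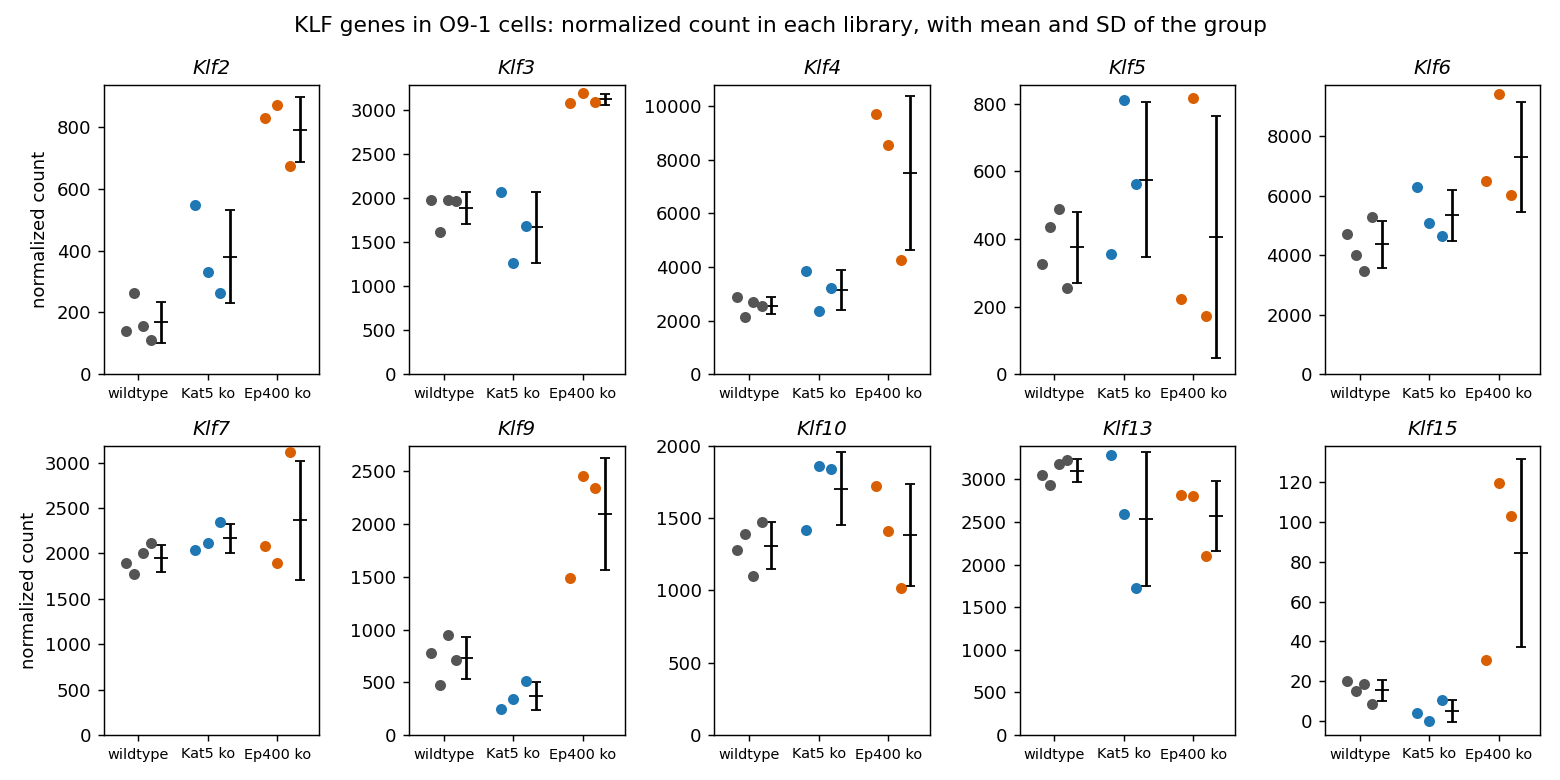
Normalized counts of the 10 KLF genes in every library, 1 panel per gene with its own linear axis, for wildtype (grey, n = 4), Kat5 ko (blue, n = 3) and Ep400 ko (orange, n = 3), and the group mean with its SD in black. For *Klf2*, *Klf3*, *Klf4*, *Klf6*, *Klf9* and *Klf15* all 3 Ep400 ko libraries lie above all 4 wildtype libraries.

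Among the members with activating domains, *Klf2* showed the strongest increase of the DEGs. Klf2 is a factor that keeps endothelial cells and T cells quiescent. The gene (ENSMUSG00000055148, chromosome 8, 72319033 to 72321656, plus strand) had 139, 262, 157 and 111 normalized counts in wildtype cells, as opposed to 831, 873 and 674 in the clones Ep400/1, Ep400/2 and Ep400/3. All clones lay well above the highest wildtype sample. The mean rose from 167 ± 65.7 (SD, n = 4) to 793 ± 105 (SD, n = 3), a log2-fold change of 2.24 (SE, the standard error, 0.30 and adjusted p = 0.00462). The call held when any single library was left out, with adjusted p between 0.00543 and 0.0206.

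*Klf4* (ENSMUSG00000003032, chromosome 4, 55527143 to 55532466, minus strand) had 2872, 2129, 2680 and 2528 normalized counts in wildtype libraries and 9718, 8551 and 4255 in the Ep400 ko clones. Clone Ep400/3 was the lowest of the clones but still lay above all wildtype samples. The log2-fold change was 1.56 (SE 0.26 and adjusted p = 0.0092), and the mean of the clones corresponded to 294% of the wildtype mean. The median of the 861 genes on chromosome 4 was higher by 0.15, 0.11 and 0.16 on the log2 scale in these clones, and with the offset for chromosomes described below for *Klf9* the log2-fold change of *Klf4* was 1.42 (adjusted p = 0.0148). Of 10 listed genes of the naive pluripotency network in which Klf4 acts, 6, among them *Pou5f1*, *Esrrb* and *Zfp42*, had 0 reads in every library. *Sox2* had mean levels of 20.2 FPKM in wildtype cells and 43.4 FPKM in the Ep400 ko clones (log2-fold change 1.10, SE 0.42 and adjusted p = 0.109), and *Tbx3* had 4.98 and 6.12 FPKM. Neither passed the test in any comparison.

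*Klf6* (ENSMUSG00000000078, chromosome 13, 5861482 to 5870394, plus strand), which is induced by injury and by TGF-beta, had 4707, 4014, 3475 and 5277 normalized counts in wildtype libraries and 6493, 9417 and 6006 in the clones. The groups did not overlap. The log2-fold change of 0.74 (SE 0.21) passed the test with an adjusted p of 0.0469. The call held without clone Ep400/3 (adjusted p = 0.0408) and was lost without wildtype samples 1, 2, 3 or 4 (adjusted p = 0.104, 0.117, 0.0947 and 0.067) and without clones Ep400/1 or Ep400/2 (adjusted p = 0.0551 and 0.14). It was also lost with the offset for chromosomes (log2-fold change 0.62, adjusted p = 0.076), where chromosome 13 had medians of 0.10, 0.13 and 0.19 in the clones, with RLE normalization (adjusted p = 0.0543) and without a filter on low counts (adjusted p = 0.0524). The remaining activating members did not pass. *Klf7*, a neuronal growth regulator, had 1769 to 2119 normalized counts in wildtype libraries and 2087, 1896 and 3118 in the clones, with a log2-fold change of 0.28 (SE 0.19 and adjusted p = 0.326). *Klf7* shares 3196 exon bases with a gene on the opposite strand, *Gm26649*, and the sources used here do not state whether counting used the strand.

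*Klf5*, a factor of proliferating epithelia, varied most of all members among the Ep400 ko clones. It had 326, 435, 488 and 254 normalized counts in wildtype libraries and 223, 817 and 173 in the Ep400 ko clones. Clone Ep400/2 lay above all wildtype samples and the other clones lay below all of them. The log2-fold change of 0.10 (SE 0.52 and adjusted p = 0.909) therefore has an interval wide enough for changes of either sign, and without clone Ep400/2 the value was −0.94 (adjusted p = 0.117).

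The CtBP-dependent repressor gene *Klf3* (ENSMUSG00000029178, chromosome 5, 64803388 to 64832901, plus strand) had 1980, 1616, 1982 and 1971 normalized counts in wildtype libraries. The Ep400 ko clones had 3084, 3190 and 3088 and were the most uniform group of any member, with a coefficient of variation of 1.91%. The increase was modest with a log2-fold change of 0.72 (SE 0.13 and adjusted p = 0.00994), below the size required of a DEG, and held when any single library was left out, with adjusted p between 0.0178 and 0.0372. *Klf3* shares 404 exon bases with *Gm20033* on the opposite strand.

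Of the 3 members that bind Sin3A, *Klf9* was expressed at higher levels and *Klf10* and *Klf13* did not pass. Klf9 is a target of glucocorticoid and thyroid hormone receptors and restrains proliferation. The gene (ENSMUSG00000033863, chromosome 19, 23141226 to 23168134, plus strand) had 780, 469, 953 and 711 normalized counts in wildtype libraries and 1491, 2457 and 2343 in the clones. All clones lay above the highest wildtype sample, and clone Ep400/1 was the lowest of them. The log2-fold change was 1.52 (SE 0.26 and adjusted p = 0.00985). The median of the 484 genes measured on chromosome 19 was itself higher in these clones, by 0.29, 0.27 and 0.24 on the log2 scale relative to the wildtype mean, and with an offset for each chromosome and library *Klf9* retained a log2-fold change of 1.26 (adjusted p = 0.0222). *Klf10*, a TGF-beta inducible early gene, had 1097 to 1471 normalized counts in wildtype libraries and 1720, 1412 and 1016 in the clones (log2-fold change 0.08, SE 0.20 and adjusted p = 0.817). *Klf13*, an activator of the chemokine gene *Ccl5* in T cells, had 2935 to 3233 normalized counts in wildtype libraries and 2815, 2805 and 2097 in the clones. These lay below all wildtype samples, but the log2-fold change of −0.27 (SE 0.14 and adjusted p = 0.223) did not pass.

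*Klf15* (ENSMUSG00000030087, chromosome 6, 90462576 to 90475238, plus strand), a regulator of amino acid and glucose metabolism in muscle and liver, was measured from few reads. The raw counts were 17, 14, 19 and 10 in wildtype libraries and 35, 103 and 111 in the Ep400 ko clones, which corresponds to 8.23 to 20.2 and to 30.6, 120 and 103 normalized counts. Clones Ep400/2 and Ep400/3 were far above wildtype and clone Ep400/1 was nearer to it. The log2-fold change was 2.44 (SE 0.55 and adjusted p = 0.024), with a mean in the clones below the 100 normalized counts required of a DEG. The call was lost without wildtype samples 1, 2 or 4 (adjusted p = 0.0601, 0.0649 and 0.0691) and without clones Ep400/2 or Ep400/3 (adjusted p = 0.0644 and 0.0519), as well as in a single fit of all libraries (adjusted p = 0.0678).

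**Figure D3:**
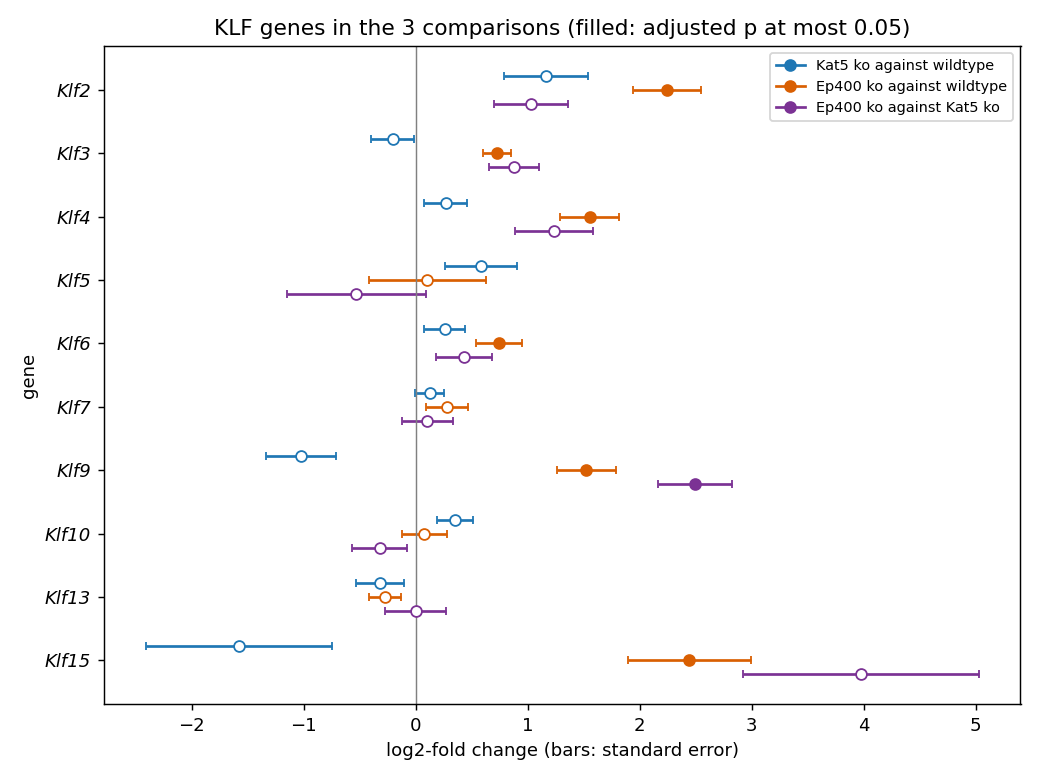
Log2-fold changes of the 10 KLF genes with their standard errors for Kat5 ko against wildtype (blue), Ep400 ko against wildtype (orange) and Ep400 ko against Kat5 ko (purple), with filled points for an adjusted p of at most 0.05. In the comparison of Ep400 ko with wildtype 6 points are filled, in that of Ep400 ko with Kat5 ko only *Klf9*, and in that of Kat5 ko with wildtype none.

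The same question was asked for Kat5. In the Kat5 ko clones, 0 of the 10 members passed edgeR's quasi-likelihood test, where 0.179% of the 13434 genes tested passed as higher and 0.447% as lower. At an unadjusted p under 0.05 there were 2 members, *Klf2* and *Klf9*, against 22.3% of all genes tested. DESeq2 called both of these (adjusted p = 0.0278 for each), and limma called 0. Shares of all genes called by DESeq2 or limma were not determined, so their counts here and below have no share beside them. In 1 member, *Klf2*, all clones lay above all wildtype samples, against 9.67% of all genes tested, and in 9 members the groups overlapped. On the log2 scale, the median change was 0.19 for the members and 3.2e-05 for the tested genes as a whole. Because the wildtype libraries are the same as above, the values for Kat5 and Ep400 are not independent.

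*Klf2* had 549, 330 and 264 normalized counts in the clones Kat5/1, Kat5/2 and Kat5/3. The lowest of these is barely above the highest wildtype sample with 262, and the log2-fold change was 1.16 (SE 0.38 and adjusted p = 0.134). *Klf9* had 249, 341 and 508 normalized counts in these clones, of which the last overlapped with the lowest wildtype sample with 469. The log2-fold change was −1.02 (SE 0.31 and adjusted p = 0.117). Here, too, the chromosome median had the sign of the change in the gene, with −0.09, −0.20 and −0.31 on the log2 scale in the clones Kat5/1 to Kat5/3. With the offset for chromosomes the log2-fold change of *Klf9* was −0.80 (adjusted p = 0.204). The order of the clones was opposite, as clone Kat5/1 had the lowest *Klf9* and the smallest shift of the chromosome and clone Kat5/3 the highest and the largest.

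*Klf15* had raw counts of 4, 0 and 13 in the Kat5 ko clones (log2-fold change −1.58, SE 0.83 and adjusted p = 0.297), which did not pass. *Klf4* had 3847, 2353 and 3199 normalized counts in the Kat5 ko clones, with a log2-fold change of 0.27 (SE 0.19 and adjusted p = 0.443), and *Klf6* had 6285, 5064 and 4646, with a log2-fold change of 0.26 (SE 0.18 and adjusted p = 0.438). For *Klf4* and *Klf6* clone Kat5/1 was the highest of the clones, as it was for *Klf2*, *Klf3* and *Klf13*. *Klf5* had 354, 811 and 562 normalized counts (log2-fold change 0.58, adjusted p = 0.319) and was highest in clone Kat5/2. *Klf3*, *Klf7*, *Klf10* and *Klf13* had log2-fold changes of −0.21, 0.12, 0.35 and −0.32 with adjusted p between 0.245 and 0.601. For *Klf13*, the clones spread from 1723 to 3286 normalized counts and thus over a wider range than the wildtype libraries.

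**Figure D4:**
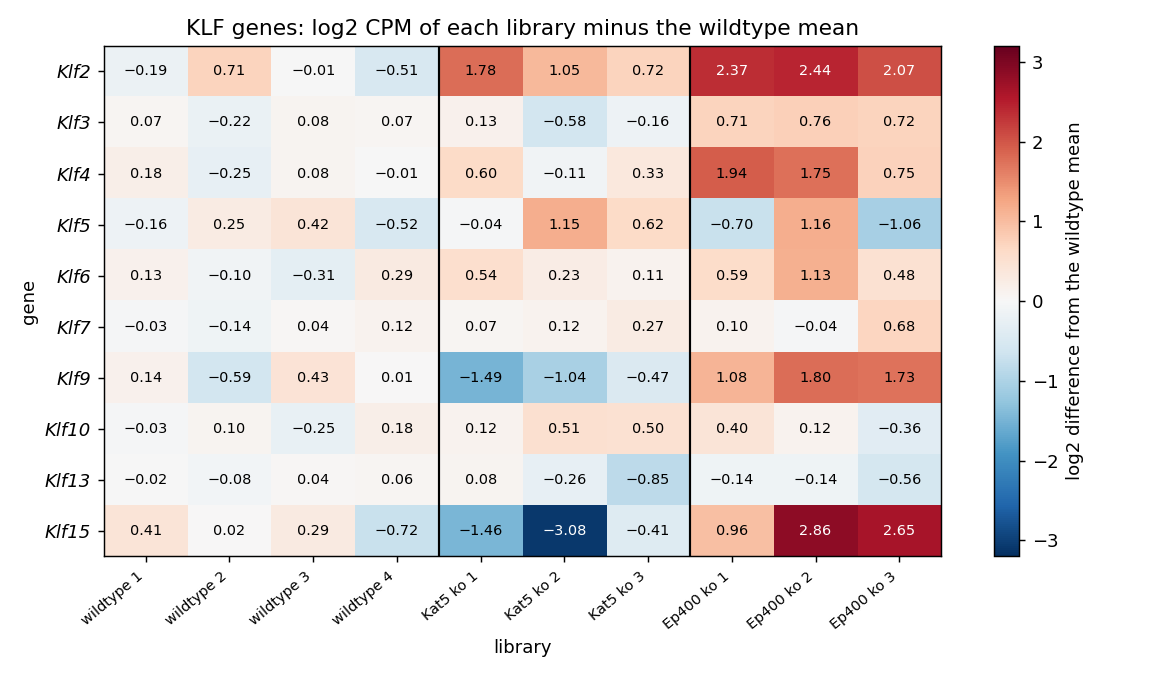
Log2 CPM of each KLF gene (rows) in each library (columns) minus the mean of the wildtype libraries, with red for higher and blue for lower values. The clones Ep400/1 to Ep400/3 reach 2.37, 2.44 and 2.07 for *Klf2*, and *Klf9* and *Klf15* are negative in all 3 Kat5 ko clones and positive in all 3 Ep400 ko clones.

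Whether the ko clones differ from each other was tested directly. Between Ep400 ko and Kat5 ko clones, *Klf9* was higher in the former with a log2-fold change of 2.50 (SE 0.33 and adjusted p = 0.0216) and was the 1 member that passed, where 4.22% of the 13587 genes tested passed as higher, 2.83% as lower and 3.05% were DEGs with higher levels. The lowest Ep400 ko clone had 1491 normalized counts and the highest Kat5 ko clone 508. This call was lost without clones Kat5/2 or Kat5/3 (adjusted p = 0.0592 and 0.0661) and without clones Ep400/2 or Ep400/3 (adjusted p = 0.0643 and 0.0812), with log2-fold changes from 2.28 to 2.81 over all fits that left out a clone. With the offset for chromosomes it was 2.01 (adjusted p = 0.0346).

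In 5 members all Ep400 ko clones lay above all Kat5 ko clones, against 20.5% of all genes tested. Besides *Klf9* these were *Klf2*, *Klf3*, *Klf4* and *Klf15*, with log2-fold changes of 1.03, 0.88, 1.24 and 3.98 and adjusted p of 0.0845, 0.0554, 0.0641 and 0.0579. All 5 had an unadjusted p under 0.05, as had 32.4% of all genes tested. Without clone Kat5/1, *Klf2* and *Klf3* passed in addition to *Klf9* (adjusted p = 0.0274 and 0.0271). *Klf5*, *Klf6*, *Klf7*, *Klf10* and *Klf13* overlapped between the ko groups, with log2-fold changes of −0.53, 0.43, 0.11, −0.32 and −0.00090. The adjusted p of *Klf6* was 0.259. The differences of *Klf9* and *Klf15* between the ko groups combine values below the wildtype mean in the Kat5 ko clones with values above it in the Ep400 ko clones, whereas *Klf2* lay above it in both.

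Summed over the 10 members, wildtype libraries had 15034 to 17684, Kat5 ko clones 16724 to 20098 and Ep400 ko clones 22874 to 31540 normalized counts. Across the 10 libraries, the members with the most similar profiles were *Klf9* and *Klf15* with a Pearson correlation of log2 CPM of 0.91, followed by *Klf3* and *Klf15* with 0.864 and *Klf3* and *Klf4* with 0.845. *Klf7* and *Klf13* ran most in opposite directions with −0.658. These values describe 10 libraries that share group means, and carry no test. Among all 14079 genes with sufficient reads, the closest profiles to *Klf2* were those of *Thpo* (0.945), *Meaf6* (0.931) and *Lingo1* (0.93), profiles close to *Klf4* included those of *Crnn* (0.96) and *Rnf217* (0.954), and the closest to *Klf9* were those of *Golga7b* (0.985), *Spp1* (0.984) and *Rragb* (0.975). *Meaf6* codes for a subunit that the Tip60/Ep400 complex shares with other acetyltransferase complexes, and *Spp1* for the matrix protein osteopontin.

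Of the other 7 KLF genes listed, 4 had enough reads, and *Klf14* and *Klf17* had 0 reads in every library. *Klf12*, like *Klf3* a CtBP-dependent repressor, was lower in the Ep400 ko clones with 7.42 to 14.0 normalized counts against 39.3 to 118 in wildtype libraries (log2-fold change −2.86, SE 0.54 and adjusted p = 0.013). In the Kat5 ko clones it had 25.5 to 27.7 normalized counts, which also lay below all wildtype libraries, with a log2-fold change of −1.62 (SE 0.47 and adjusted p = 0.109). *Klf16* had 2251 to 2518 normalized counts in the Kat5 ko clones, 1277 to 1797 in wildtype libraries and 565 to 1264 in the Ep400 ko clones, but did not pass edgeR's test (adjusted p = 0.0876, 0.213 and 0.0574 for Kat5, for Ep400 and between the ko groups), nor did *Klf8* and *Klf11*. Among these other KLF genes, DESeq2 called 2 and limma 0 for Kat5, and each called 1 for Ep400 and 1 between the ko groups. Of the 9 SP genes, 0 of 6 tested passed in the Ep400 ko clones and 0 of 5 in the Kat5 ko clones, with 0 and 1 at an unadjusted p under 0.05, 0 and 1 called by DESeq2 and 0 by limma. *Sp1*, the ubiquitous activator, had log2-fold changes of −0.24 and 0.11.

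Genes that act around the KLFs were examined as lists, together with markers of cell types and the other KLF and SP genes. Of all genes tested, 0.179% passed as higher and 0.447% as lower for Kat5, and 8% and 5.72% for Ep400. Between the ko groups these shares were 4.22% and 2.83%. In edgeR's test, 2996 of 13434 genes for Kat5 had an unadjusted p of at most 0.05. For Ep400 these were 4453 of 13836 and between the ko groups 4400 of 13587. The lists were not tested against these shares. Over all lists, 4 genes passed for Kat5, 18 for Ep400 and 10 between the ko groups. No share of the listed genes tested was taken for these totals, which are no result about the lists. The calls depended on single libraries. For Kat5, 0 passed without wildtype samples 1 or 4, 2 without wildtype samples 2 or 3, 1 without clones Kat5/2 or Kat5/3 and 29 without clone Kat5/1. DESeq2 called 25, limma 3, and edgeR without robust estimation or with library size alone 2. For Ep400, 8, 10 and 6 passed without wildtype samples 1, 2 and 4 and 11 without clone Ep400/2. Between the ko groups, 0 passed without clones Kat5/2, Kat5/3, Ep400/2 or Ep400/3 and 20 without clone Kat5/1, and DESeq2 called 30. Among 14 corepressors and coactivators of KLFs, including *Ctbp1*, *Sin3a* and *Ep300*, 0 passed in either ko, with 6 (Ep400) and 1 (Kat5) at an unadjusted p under 0.05 and 3 and 0 called by DESeq2 and 0 by limma. Their median log2-fold change was −0.32 in the Ep400 and 0.06 in the Kat5 ko clones. Of 9 genes for ubiquitin ligases of KLF proteins, *Fbxo32*, which codes for atrogin-1, was higher in the Ep400 ko clones with 5139 ± 4656 against 1152 ± 343 normalized counts (SD; log2-fold change 2.16, adjusted p = 0.0395), where limma called 0. For Kat5, 0 passed, with 3 at an unadjusted p under 0.05, 3 called by DESeq2 and 0 by limma.

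Of the kinases and MEF2 factors that induce *Klf2* and *Klf4*, 7 of 8 were tested and 0 passed in either ko, with 1 at an unadjusted p under 0.05 in each and 0 called by DESeq2 or limma. Glucocorticoid-induced genes, to which *Klf9* belongs by regulation, moved in both directions. Of 10 tested in the Ep400 ko clones, the metallothionein genes *Mt2* and *Mt1* were higher (log2-fold changes 2.29 and 1.81, adjusted p = 0.0256 and 0.0315). The stress gene *Ddit4* was lower (−1.99, adjusted p = 0.0148). Of the 10, 7 had positive log2-fold changes and 4 an unadjusted p under 0.05, and the median was 0.22. A part of glucocorticoids in the level of *Klf9* was not tested. In the Kat5 ko clones 0 of 10 passed, with 3 at an unadjusted p under 0.05, 1 called by DESeq2 and 0 by limma.

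Among serum-induced transcription factor genes, *Egr1* was higher in the Kat5 ko clones with 1109 ± 147 against 180 ± 43.0 normalized counts (SD; log2-fold change 2.59, adjusted p = 0.00819). It was also higher in the Ep400 ko clones (2.17, adjusted p = 0.0379), as was *Egr2* (3.07, adjusted p = 0.0207). These were 1 of 11 and 2 of 12 genes tested, and 0 were lower. Of 12 TGF-beta response genes around *Klf6* and *Klf10*, *Smad3* was higher in the Ep400 ko clones (0.97, adjusted p = 0.023) and 0 passed in the Kat5 ko clones, with 4 at an unadjusted p under 0.05, 3 called by DESeq2 and 0 by limma.

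Known targets of KLFs that passed did so in both directions. In the Kat5 ko clones, 9 of 11 proliferation, 6 of 11 vessel and matrix, 1 of 7 metabolic and 4 of 4 smooth muscle genes were positive. Their median log2-fold changes were 0.31, 0.29, −0.66 and 2.25. In the Ep400 ko clones 3 of 11, 5 of 11, 4 of 8 and 3 of 4 were positive, with medians of −0.28, −0.03, 0.07 and 0.38. Of 11 proliferation genes tested, *Cdkn1c*, a cell cycle inhibitor, was lower in the Kat5 ko clones with 11.8 ± 4.94 against 269 ± 247 normalized counts (SD; log2-fold change −4.53, adjusted p = 0.0493), where limma called 0. In addition, 0 passed in the Ep400 ko clones, with 2 at an unadjusted p under 0.05, 1 called by DESeq2 and 0 by limma. Of 11 vessel and matrix genes, *Edn1* (2.90, adjusted p = 0.0445) and *Plaur* (1.24, adjusted p = 0.0493) were higher in the Kat5 ko clones. In the Ep400 ko clones 0 passed, with 2 at an unadjusted p under 0.05, 2 called by DESeq2 and 0 by limma. Of 8 metabolic genes tested in the Ep400 ko clones, *Cebpa* was higher (3.42, adjusted p = 0.0223), whereas *Prodh* (−1.80, adjusted p = 0.00655) and *Bcat2* (−0.88, adjusted p = 0.00844), both for enzymes that break down amino acids, were lower. *Prodh* and *Bcat2* are known as genes that Klf15 activates. For Kat5 ko clones, 0 of 7 passed, with 4 at an unadjusted p under 0.05, 1 called by DESeq2 and 0 by limma. Of the 4 smooth muscle genes tested, 0 passed in either ko, with 2 (Kat5) and 1 (Ep400) at an unadjusted p under 0.05, 0 and 1 called by DESeq2 and 0 by limma. The smooth muscle list summed to 4556 to 6404 normalized counts in wildtype libraries, 6254 to 32941 in Kat5 ko clones and 3573 to 6721 in Ep400 ko clones.

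In the direct comparison of Ep400 ko with Kat5 ko clones, the listed genes that were higher in the former were, besides the neural crest markers given below, *Fbxo32* (log2-fold change 3.44, adjusted p = 0.0425), *Mt2* (3.41, adjusted p = 0.0279), *Mt1* (2.24, adjusted p = 0.0398), *Cdkn1c* (3.48, adjusted p = 0.0271) and *Cebpb* (1.46, adjusted p = 0.0294). *Smtn*, a smooth muscle gene, was lower (−1.32, adjusted p = 0.046), as was the cyclin gene *Ccne1* (−1.96, adjusted p = 0.05).

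Most markers of other cell types in which KLFs are prominent were low. The 12 epithelial markers summed to 215 to 424 normalized counts in wildtype libraries, 120 to 225 in Kat5 ko clones and 103 to 185 in Ep400 ko clones, where *Krt18* (log2-fold change −5.78, adjusted p = 0.0186) and *Krt8* (−2.21, adjusted p = 0.0217) were lower. *Krt19* had the highest mean of these markers, with 178 normalized counts in wildtype libraries and 104 in Ep400 ko clones. *Cdh1* and *Epcam* had at most 13 and 29 raw reads in any wildtype library. The 8 endothelial markers summed to 48.4 to 71.4 in wildtype libraries, 12.3 to 27.7 in Kat5 ko clones and 34.1 to 84.4 in Ep400 ko clones. Of these, *Tie1* was at 0 in every library, *Pecam1* was lower (−3.33, adjusted p = 0.0236) and *Vwf* higher (2.11, adjusted p = 0.0459) in the Ep400 ko clones. The 6 hematopoietic markers summed to 191 to 243, 114 to 260 and 96.4 to 293, mostly from *Cd68*, and *Tyrobp* was at 0. In the Kat5 ko clones 0 of 4 epithelial, 0 of 1 endothelial and 0 of 1 hematopoietic markers tested passed, with 3, 1 and 1 at an unadjusted p under 0.05, 2, 1 and 0 called by DESeq2 and 0 by limma. Whether these markers bear on the levels of *Klf2* and *Klf4* was not tested.

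The 12 cranial neural crest markers summed to 36569 to 47518 normalized counts in wildtype libraries, 37361 to 43090 in Kat5 ko clones and 47255 to 96340 in Ep400 ko clones. Most of this came from *Prrx1*, which did not pass, with 24269 to 35477 in wildtype libraries and 32852 to 80381 in Ep400 ko clones. Of 10 tested in the Ep400 ko clones, *Pax3* (log2-fold change 5.13, adjusted p = 0.00369), *Tfap2a* (1.37, adjusted p = 0.023) and *Snai2* (0.86, adjusted p = 0.0451) were higher and 0 were lower. *Pax3* had 3.23 to 6.80 normalized counts in wildtype libraries and 48.9 to 253 in the Ep400 ko clones. Of the 10, 8 had positive log2-fold changes, and *Sox9* and *Ets1* had lower means in the Ep400 ko clones. Among Kat5 ko clones 0 of 8 passed, with 1 at an unadjusted p under 0.05, 1 called by DESeq2 and 0 by limma. Between the ko groups, *Msx1* (2.33, adjusted p = 0.0415), *Tfap2a* (1.47, adjusted p = 0.0375) and *Snai2* (1.07, adjusted p = 0.0409) were higher in the Ep400 ko clones. *Pax3*, *Tfap2a* and *Snai2* moved with the 6 KLF genes that were higher in these clones, and their part in those results was not tested.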

How the data were processed

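The authors prepared stranded poly-A libraries, obtained paired reads of 100 bases (Illumina NovaSeq) and used mm10 for mapping. The submitters' processing notes name bcl2fastq 2.20, STAR 2.7.3, R 4.2.1 and DESeq2 1.36.0. The counting program, its strand setting and the annotation are not given in the sources used here. Each deposited count is a whole number of reads for a gene, with no normalization by the authors. Their normalized tables were not used.

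Libraries were grouped by their labels. For each of the 3 comparisons, low genes were removed by filterByExpr, TMM served for normalization, and edgeR 4.0.16 for testing (R 4.3.3; quasi-likelihood test with robust estimation, Benjamini-Hochberg adjustment over all genes tested). Standard errors are the absolute log2-fold change over the square root of F. The procedure was tested on simulated data. Alternatives were DESeq2 1.42.0, limma 3.58.1 with voom, other normalizations and filters, 1 fit of all libraries, a replicate block, offsets for chromosomes, unadjusted p and each library left out. Replicate libraries differed by more than counting noise (28.1 to 258 for chi-square over its degrees of freedom). FPKM used exon lengths of GENCODE M21 on GRCm38, which matched 42462 of 43346 genes by identifier and all 10 members by symbol. Promoter windows are from RefSeq on GRCm38.p6. Named genes were all members, up to 3 genes per list and comparison with the largest log2-fold change among those with an adjusted p of at most 0.05, all other KLF genes, and the 3 genes most correlated with each DEG among the members. 1 of these genes is not reported here. A few listed genes without a call were named after their values had been seen. The members and lists were chosen with earlier results of these data known.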

Additional observations from a re-analysis of the deposited data

Results flagged for a closer look

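*Klf3* had 1616 normalized counts in wildtype sample 2 and 1971 to 1982 in the other wildtype libraries, so that this sample stood apart from the rest of its group by Dixon's criterion. The wildtype group of each of the 10 members was examined, and about 1 in 20 groups is set apart in this way by chance. *Klf9* and *Klf15* differed in direction between the ko groups, with Kat5 ko clones below and Ep400 ko clones above the wildtype mean in all 3 clones of each. The difference between the ko groups was 2.50 on the log2 scale for *Klf9*, which passed the direct test (edgeR, adjusted p = 0.0216), and 3.98 for *Klf15*, which did not (adjusted p = 0.0579) and rests on 0 to 13 raw reads in the Kat5 ko clones.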

How the results depend on the processing

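In the Kat5 ko clones, 0 members passed under every alternative except DESeq2, which called 2, both of them DEGs, and unadjusted p, which gave 2 DEGs. In the Ep400 ko clones, 4 to 6 members passed and 3 or 4 were DEGs under all alternatives but the replicate block. Between the ko groups, where 1 member passed, DESeq2 called 5 (3 DEGs), and the test without a filter on low counts and the single fit of all libraries each called 4 (2 DEGs). Unadjusted p gave 3 DEGs, and leaving out 1 clone gave 0 to 3 calls and 0 to 3 DEGs. *Klf2*, *Klf3*, *Klf4* and *Klf9* in the Ep400 ko clones passed with any single library left out, and *Klf6* and *Klf15* did not. The fit without robust estimation was chosen after the data had been seen.

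Replicate numbers mark no shared unit, and residuals of libraries with the same number had correlations of −0.0957 to 0.223. With the replicate block, 1 member, *Klf2*, passed and was a DEG in the Ep400 ko clones; the pairing changed no count in the other comparisons.

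Direction was lost only in genes that did not pass. *Klf5* in the Ep400 ko clones had −0.26 with limma, −0.38 with the block, −0.013 with the chromosome offset and −0.94 to 0.47 without 1 library; *Klf10* had −0.11 to 0.25 without 1 library. Between the ko groups, *Klf7* had −0.042 with the chromosome offset and −0.14 to 0.23 without 1 clone. *Klf13*, there near 0, had 0.0046 with DESeq2, 0.038 with limma, 0.012 with RLE, 0.12 with library size alone, 0.0072 without a filter, 0.038 with the stricter filter, 0.022 with the single fit, 0.037 with the block and −0.20 to 0.23 without 1 clone. The causes were not tested. Depth limits *Klf15*, with 0 to 19 raw reads in wildtype and Kat5 ko libraries, which the stricter filter removed.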
